A study of Rattus norvegicus with 24 samples.

Results

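The miR-29 family was followed through 24 small RNA libraries of rat brain, as the 3 mature miRNAs rno-miR-29a-3p, rno-miR-29b-3p and rno-miR-29c-3p, written without the species prefix from here on. They were taken by name, as the 3p products of the miR-29a, miR-29b and miR-29c hairpins listed in the count tables of both brain regions, and are 3 of the 728 miRNAs listed there. The libraries came from 12 adult Sprague-Dawley rats, each giving the perilesional cortex and the ipsilateral thalamus 3 months after surgery. In the TBI group (n = 6), a pulse of fluid had struck the exposed dura, a model of head injury called lateral fluid-percussion injury, and the sham group (n = 6) had the operation without the pulse. The TBI rats were picked by the study for chronic inflammation around the lesion, so they stand for that outcome rather than for the injury in general. Both regions of a rat were sequenced as bulk tissue, and a library held between 523298 and 4139901 miRNA reads.

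miRNAs are short RNAs that pair through their seed, the bases near the 5′ end, with sites in messenger RNAs, and lower the output of those messengers. The miR-29 family is best known for targeting messengers of collagens and other proteins of the extracellular matrix, and for falling in tissues that scar. In brain it is found in neurons and in astrocytes, it rises as the brain matures, and messengers of cell-death proteins are among its known targets. Each hairpin is cut into a 3p and a 5p product, and one of these usually outlasts the other.

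The mature sequences below are those of RefSeq (rat build GRCr8). They are shown because a single seed defines the family and because the members differ so little that assigning a read to one of them rests on a few bases. The seed, bases 2 to 8, is in capitals.
miR-29a-3p: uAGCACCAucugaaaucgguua
miR-29b-3p: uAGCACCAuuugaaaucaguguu
miR-29c-3p: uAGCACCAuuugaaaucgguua
No other of the 693 mature names in the RefSeq table had this seed. Of the 728 miRNAs listed in the count tables, 655 matched a RefSeq name, and the seeds of the rest were not checked. Counting positions from 1 at the 5′ end, miR-29a-3p and miR-29c-3p differed at 1 of 22 bases, C10U. miR-29a-3p and miR-29b-3p differed at 4 of the 22 bases that could be compared, C10U, G18A, U21G and A22U, and miR-29b-3p was 1 base longer. miR-29b-3p and miR-29c-3p differed by A18G, G21U and U22A. How reads with a mismatch, or reads too short to hold these bases, were shared among the members is not given in the sources used here, so single-member counts are uncertain to that extent. This matters most for the rarer members, since miR-29c-3p is 1 base away from a miRNA with far more reads.

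The family comes from 4 hairpins in a pair of clusters. On build GRCr8, miR-29a-3p lies at chr4:60617968-60617989 on the minus strand, in Mir29a, which is 291 bases from Mir29b1. miR-29c-3p lies at chr13:109099412-109099433 on the plus strand, in Mir29c, which is 447 bases from Mir29b2. miR-29b-3p is made from both clusters with the same sequence, at chr4:60618342-60618364 on the minus strand in Mir29b1 and at chr13:109098882-109098904 on the plus strand in Mir29b2. Its reads therefore cannot be told apart by locus. The reads themselves had been mapped to an older build, and only names link them to these positions.

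All 3 members were detected in all 24 libraries, at very different levels. miR-29a-3p had 785356 reads over the series (4226 to 72340 per library), miR-29b-3p had 33054 (183 to 3446) and miR-29c-3p had 9790 (45 to 1225). Together they made up 1.72% ± 0.364 of the miRNA reads in sham cortex, 1.97% ± 0.556 in TBI cortex, 1.57% ± 0.489 in sham thalamus and 1.40% ± 0.394 in TBI thalamus (SD, n = 6 each). By mean level miR-29a-3p ranked between 14 and 20 among the miRNAs of a group, miR-29b-3p between 91 and 118, and miR-29c-3p between 163 and 182. miR-29a-3p alone gave 95.2% ± 0.438 of the family's reads in sham cortex and 94.2% ± 0.441 in sham thalamus. The order was the same in every library, and the members are 22 or 23 bases long. Differences in how well each sequence enters a library were not corrected, so the order of the members is one of reads.

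Levels are given in CPM, reads per 1000000 miRNA reads after scaling by the trimmed mean of M-values (TMM) over all 24 libraries. In sham cortex miR-29a-3p ran from 16189 to 24940 CPM with a median of 19589, and in TBI cortex from 13268 to 25780 with a median of 17580. The TBI range enclosed the sham range. In sham thalamus it ran from 9460 to 16155 CPM with a median of 13996, and in TBI thalamus from 8920 to 14930 with a median of 11695. Both thalamus groups overlapped almost wholly, and their highest values lay near the lowest values of cortex.

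miR-29b-3p ran from 560 to 1095 CPM (median 772) in sham cortex and from 486 to 1035 (median 672) in TBI cortex. In thalamus it ran from 444 to 840 CPM (median 599) in sham rats and from 360 to 731 (median 514) in TBI rats. miR-29c-3p ran from 149 to 317 CPM (median 182) in sham cortex and from 111 to 301 (median 189) in TBI cortex. In thalamus the miR-29c-3p values were 107 to 278 CPM (median 190) in sham and 88.5 to 228 (median 154) in TBI rats. For these members all 4 groups overlapped.

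**Figure D1:**
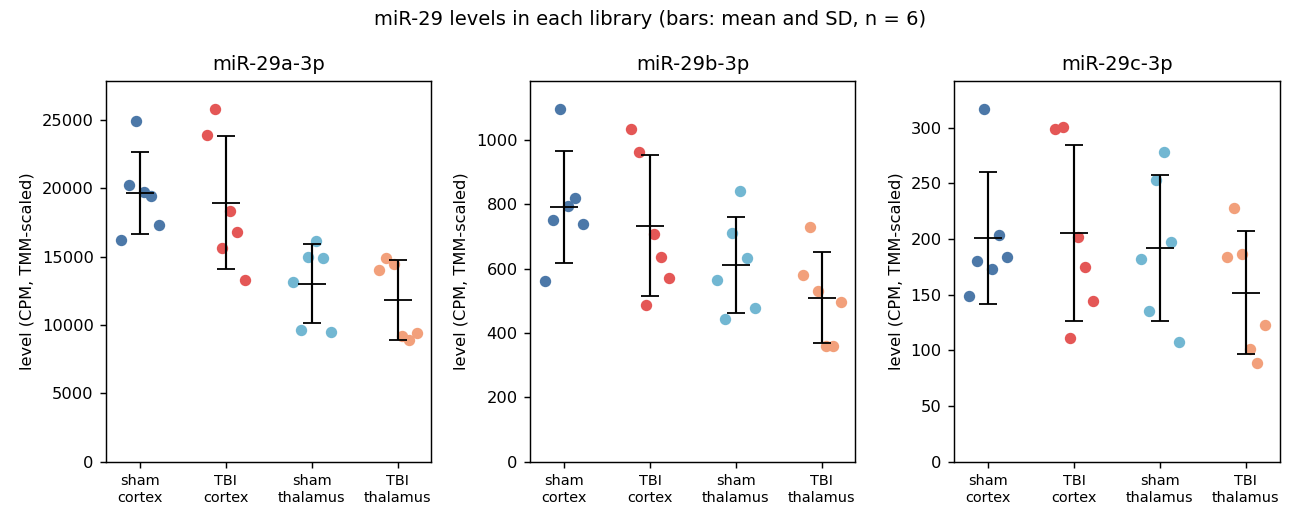
Level of each miR-29 member (vertical axis, TMM-scaled CPM from 0) in the 24 libraries, by group (horizontal axis, 6 libraries each); points are libraries, black bars the mean and SD. miR-29a-3p averaged 19652 and 18957 CPM in sham and TBI cortex against 13032 and 11811 in sham and TBI thalamus, while the groups of miR-29b-3p and miR-29c-3p overlapped.

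The first question was whether the family differed between TBI and sham rats. In cortex no member passed: miR-29a-3p had a log2 fold change, TBI over sham, of -0.01 (SE 0.14, adjusted p = 0.983), miR-29b-3p of -0.07 (SE 0.18, adjusted p = 0.881) and miR-29c-3p of 0.07 (SE 0.23, adjusted p = 0.906), in edgeR's quasi-likelihood test with Benjamini-Hochberg adjustment over all miRNAs tested. Of the 371 miRNAs tested in cortex 22 passed, or 5.93%. The signs of these small values turned with the scaling: with plain library size miR-29a-3p was at 0.20 and miR-29b-3p at 0.13, with the median of all miRNAs moved to 0.25. The data bound the difference rather than show that there is none. For miR-29a-3p, 2 SE either side spanned folds from 0.812 to 1.21, for miR-29b-3p from 0.743 to 1.22 and for miR-29c-3p from 0.762 to 1.45. Since these are bulk samples, fewer cells of a type and less RNA per cell cannot be told apart in any of these comparisons.

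In thalamus the values of all 3 members were below 0, and again no member passed. The log2 fold changes, TBI over sham, were -0.14 for miR-29a-3p (SE 0.20, adjusted p = 0.862), -0.26 for miR-29b-3p (SE 0.23, adjusted p = 0.818) and -0.33 for miR-29c-3p (SE 0.29, adjusted p = 0.818; edgeR, Benjamini-Hochberg). Across the 390 miRNAs tested there, 2 passed, or 0.513%. Spans of 2 SE reached folds from 0.683 to 1.21 for miR-29a-3p, from 0.609 to 1.14 for miR-29b-3p and from 0.533 to 1.18 for miR-29c-3p. The spans thus include both a fall and a rise of each member. The thalamus libraries of sham rat 55 and TBI rat 56 were the shallowest of the series (523298 and 538194 miRNA reads), and they held the lowest miR-29a-3p and miR-29c-3p levels of their groups. Without both, the 3 values were -0.14, -0.23 and -0.33 (adjusted p = 0.847, 0.775 and 0.712). Without TBI rat 56 alone, they were 0.0031, -0.11 and -0.15.

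Whether the injury change differed between regions was tested as an interaction, the TBI-over-sham change of thalamus minus that of cortex. It was -0.09 for miR-29a-3p (SE 0.26), -0.15 for miR-29b-3p (SE 0.30) and -0.37 for miR-29c-3p (SE 0.39), each with an adjusted p of 1.00 in edgeR. No miRNA of the 407 tested passed this test with edgeR or with DESeq2, and 17 had an unadjusted p under 0.05 in edgeR.

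**Figure D2:**
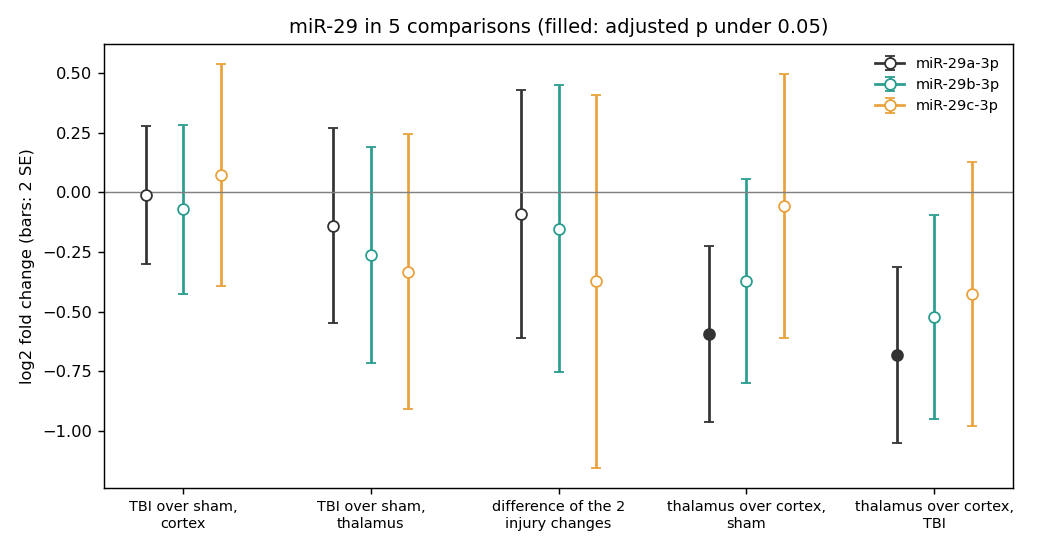
log2 fold change of each member (vertical axis) in 5 comparisons (horizontal axis), with bars of 2 SE either side; filled points passed at an adjusted p under 0.05. The injury comparisons of cortex and thalamus and their difference all span 0, and the filled points are those of miR-29a-3p between regions, at -0.59 in sham and -0.68 in TBI rats.

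The comparison that passed was between regions. In sham rats miR-29a-3p was 1.51-fold lower in thalamus than in cortex, or -0.59 on the log2 scale (SE 0.18, edgeR adjusted p = 0.0192), and in TBI rats it was 1.60-fold lower, at -0.68 (SE 0.18, edgeR adjusted p = 0.00682). In either direction 25.1% of miRNAs passed in sham and 27.3% in TBI rats. Lower calls were 50 of 407 miRNAs in sham rats, or 12.3%, and 54 in TBI rats, or 13.3%, so a call of this kind was common. In sham rats the lowest cortex value (16189 CPM, rat 26) lay just above the highest thalamus value (16155 CPM, rat 38), and 6.63% of miRNAs had thalamus values wholly below those of cortex. In TBI rats the regions overlapped, since cortex reached down to 13268 CPM in rat 63. A fit with the rat as a block gave adjusted p-values of 0.00312 in sham and 0.00120 in TBI rats (edgeR), with the calls the same.

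With TMM miR-29b-3p had the same sign and did not pass without the block, while with plain library size its sham value turned to 0.07 (adjusted p = 0.833; edgeR). Its log2 fold changes, thalamus over cortex, were -0.37 in sham rats (SE 0.21, adjusted p = 0.218) and -0.52 in TBI rats (SE 0.21, adjusted p = 0.0754; edgeR). With the rat as a block the TBI value was -0.52 and passed (SE 0.17, edgeR adjusted p = 0.0219), and the sham value was -0.38 and did not pass (adjusted p = 0.0879). miR-29c-3p was at -0.06 in sham rats (SE 0.28, adjusted p = 0.895) and at -0.43 in TBI rats (SE 0.28, adjusted p = 0.284; edgeR). Its value in sham rats had no stable sign, at 0.09 without the 2 shallowest thalamus libraries and at 0.39 with plain library size.

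Seen rat by rat on the TMM scale, miR-29a-3p was lower in thalamus in 6 of 6 sham and 6 of 6 TBI rats. Of the 407 miRNAs 43 were lower in all 12 rats, or 10.6%. The gap was smallest in TBI rat 45 (15667 against 14442 CPM) and largest in sham rat 32 (20267 against 9642 CPM). miR-29b-3p was lower in thalamus in 4 of 6 sham and 5 of 6 TBI rats, and so was miR-29c-3p. TBI rat 45 stood against the other TBI rats, with miR-29b-3p at 486 CPM in cortex and 530 in thalamus, and miR-29c-3p at 111 and 186. Its thalamus library was unusual for other miRNAs too. It had the highest miR-204-5p (13636 CPM, group median 1751) and miR-199a-5p (246 CPM, group median 21.8) of TBI thalamus. A link of these to its miR-29 values was not tested. In sham rat 38 miR-29c-3p went from 173 CPM in cortex to 278 in thalamus.

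**Figure D3:**
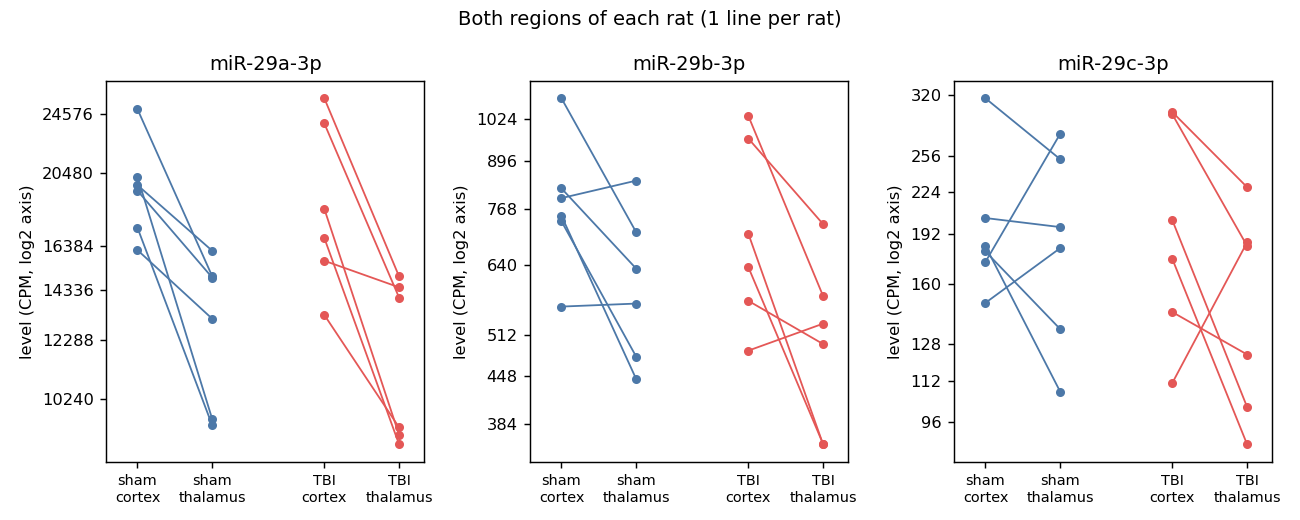
Level of each member (vertical axis, CPM on a log2 axis) in cortex and thalamus of the same rat (horizontal axis), 1 line per rat, with sham rats in blue and TBI rats in red. Every miR-29a-3p line falls from cortex to thalamus, whereas 2 sham lines and 1 TBI line rise for miR-29b-3p and for miR-29c-3p.

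The regional result leaned on the scaling. With plain library size, miR-29a-3p was at -0.14 in sham rats (adjusted p = 0.618) and at -0.51 in TBI rats (adjusted p = 0.0955; edgeR), and it was lower in thalamus in 3 of 6 sham and 5 of 6 TBI rats. Under that scaling the median log2 fold change over all miRNAs was 0.46 in sham and 0.15 in TBI rats, so that miR-29a-3p stood 0.60 and 0.66 below the median, against 0.63 and 0.65 with TMM. miR-128-3p, the miRNA with most reads in each group, took 26.9% ± 4.39 of the reads in sham cortex and 14.0% ± 3.35 in sham thalamus (SD, n = 6), and its part in the shift was not tested. Scaled to 4 reference miRNAs named by the study, miR-29a-3p was at -0.61 in sham rats (adjusted p = 0.171) and at -0.86 in TBI rats (adjusted p = 0.0393; edgeR). Leaving out sham rat 32, 34 or 50 or TBI rat 52 lost the sham call (edgeR adjusted p between 0.0542 and 0.0794). Leaving out TBI rat 24 or 52 lost the TBI call (edgeR adjusted p = 0.0526 and 0.0778). These fits did not have the rat as a block, and leaving out rats with the block was not run. Without the 2 shallowest thalamus libraries both calls held, at -0.48 (adjusted p = 0.0488) and -0.61 (adjusted p = 0.0140).

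Cell type markers differed between the regions too. The oligodendrocyte list, miR-219a-5p, miR-219a-2-3p and miR-338-3p, was called higher in thalamus for 3 of 3 in both groups, beside 12.8% of miRNAs called higher in sham and 14.0% in TBI rats, with summed levels of 3584 to 4321 CPM in sham cortex and 10137 to 17587 in sham thalamus. In TBI rats these sums were 3482 to 4988 CPM in cortex and 11084 to 14293 in thalamus. The neuron list (miR-124-3p, miR-128-3p and miR-129-5p) summed to 244230 to 474727 CPM in sham cortex and 111779 to 272779 in sham thalamus. There 1 of 3 was called lower, beside 12.3% of all miRNAs. In TBI rats the neuron sums were 181360 to 243389 CPM in cortex and 77902 to 182564 in thalamus. Of these 3, 2 were called lower, beside 13.3% of all miRNAs. Most of each sum was miR-128-3p, which averaged 331428 CPM in sham cortex and 130756 in sham thalamus. It was at -1.34 in sham and -0.85 in TBI rats on the log2 scale. miR-124-3p was at -0.32 (not called) and -0.77, and miR-129-5p at 0.17 and 0.05 (neither called). Of the choroid plexus and ependyma list, 2 of the 3 tested were called higher in sham thalamus and 3 of 3 in TBI thalamus. The shares of all miRNAs called higher were again 12.8% and 14.0%. Sums of this list were 1145 to 2464 CPM in sham cortex and 2432 to 7811 in sham thalamus. In TBI rats they were 1211 to 3314 CPM in cortex and 2024 to 19573 in thalamus. The TBI thalamus median was 3183 CPM, and miR-204-5p and miR-34c-5p were highest there in rat 45. Of the smooth muscle and pericyte list, miR-143-3p and miR-145-5p, 1 of 2 was called lower in sham thalamus, beside 12.3% of all miRNAs. The sums in sham rats were 26568 to 45067 CPM in cortex and 18036 to 29359 in thalamus. Neither was called in TBI rats, with 26751 to 48417 CPM in cortex and 16267 to 39096 in thalamus. The lists for microglia and leucocytes, endothelium and red cells had no call in any of the 5 comparisons. Between TBI and sham cortex, 1 of 3 neuron markers was called lower, beside 2.96% of all miRNAs. It was miR-128-3p, at -0.75 (edgeR adjusted p = 0.0240), with miR-124-3p at 0.15 and miR-129-5p at -0.44. The tested microglia and leucocyte markers, TBI over sham, were at 0.46 to 1.05 in cortex and 0.48 to 1.01 in thalamus, none called. No marker was at 0 in every library of a group, and the part of these cells in the miR-29a-3p difference was not tested.

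Ratios between members, taken within a library, need no scaling. In sham rats there were 1.01 ± 0.149 miR-29c-3p reads per 100 miR-29a-3p reads in cortex (0.878 to 1.27) and 1.44 ± 0.225 in thalamus (1.14 to 1.72). The ratio was higher in thalamus in 6 of 6 sham rats, by 0.51 on the log2 scale (exact two-sided sign-change test within rats, p = 0.0313, the smallest that 6 rats allow, and 0.188 after Benjamini-Hochberg adjustment over 12 ratio tests). In TBI rats it was 1.06 ± 0.186 in cortex and 1.26 ± 0.187 in thalamus, higher in 5 of 6 rats by 0.26 (exact p = 0.125, adjusted p = 0.300). Cortex of TBI rat 45 had the lowest value of all, 0.709.

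The ratio of miR-29b-3p to miR-29a-3p was higher in thalamus of the sham rats as well. It was 4.01 ± 0.359 reads per 100 in cortex and 4.70 ± 0.382 in thalamus (SD, n = 6), higher in thalamus in 6 of 6 rats by 0.23 on the log2 scale (exact p = 0.0313, adjusted p = 0.188). In TBI rats it was 3.85 ± 0.450 and 4.32 ± 0.626, higher in 5 of 6 rats by 0.16 (exact p = 0.0938, adjusted p = 0.281). miR-29c-3p per 100 miR-29b-3p reads, the ratio least tied to the common member, was 25.2 ± 2.40 in sham cortex and 30.8 ± 4.43 in sham thalamus, higher in 5 of 6 rats (exact p = 0.0625, adjusted p = 0.250). It was 27.4 ± 2.96 and 29.3 ± 4.17 in TBI rats, higher in thalamus in 2 of 6 (exact p = 0.750, adjusted p = 0.750). For a paired test at that smallest p to pass after adjustment, 8 of the 12 tests would have had to reach it. No ratio passed, and the call of miR-29a-3p beside no call of miR-29c-3p is therefore not shown to be a difference between the members.

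Between TBI and sham rats no ratio differed beyond the spread. The largest change was that of miR-29c-3p per miR-29a-3p in thalamus, lower in TBI by -0.20 on the log2 scale (two-sided exact permutation of the group labels, p = 0.158, adjusted p = 0.312). The other 5 had exact p-values between 0.206 and 0.706.

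**Figure D4:**
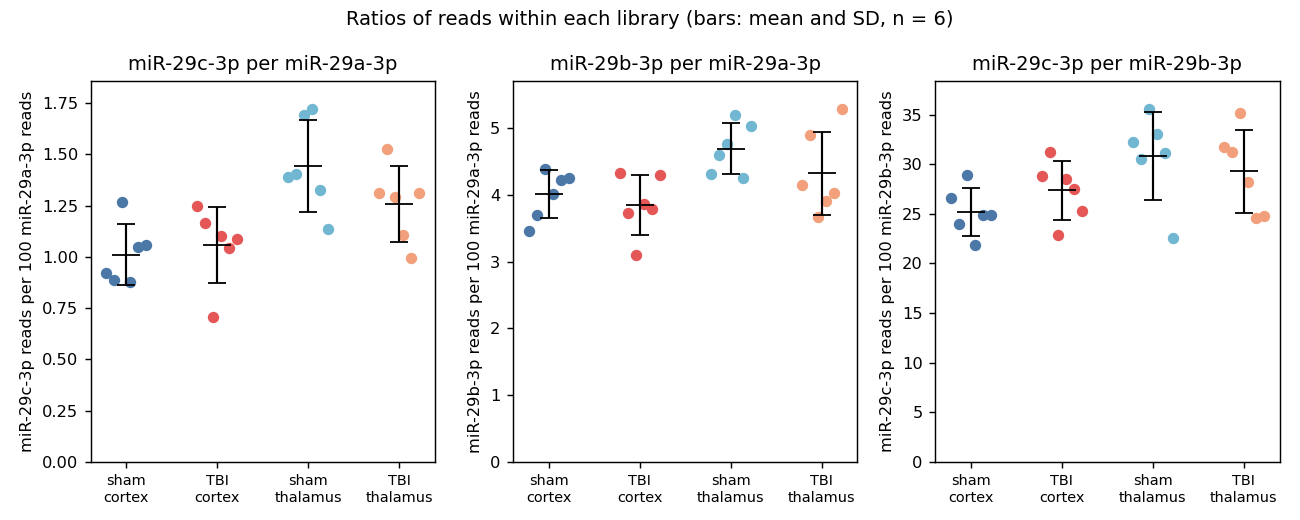
Reads of one member per 100 reads of another (vertical axes, from 0) in each library, by group (horizontal axis); points are libraries, black bars the mean and SD (n = 6). For miR-29c-3p per miR-29a-3p the sham thalamus libraries lie between 1.14 and 1.72 and the sham cortex libraries between 0.878 and 1.27.

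Within a group the members often lay on the same side of their means. In 18 of the 24 libraries all 3 lay on the same side of their group's mean. Levels of 1 library share its scaling, and other sets of 3 miRNAs were not counted. The count is therefore not shown to be particular to this family. The SD of the log2 level within groups was 0.33 for miR-29a-3p, 0.37 for miR-29b-3p and 0.51 for miR-29c-3p, beside a median of 0.37 over 217 miRNAs. Ratios varied less than levels. Their SDs were 0.24 for miR-29c-3p per miR-29a-3p, 0.16 for miR-29b-3p per miR-29a-3p and 0.19 for miR-29c-3p per miR-29b-3p. A ratio within a library does not carry that library's scaling, and ratios of other miRNAs were not computed. The smaller SDs are thus not shown to be a trait of the family. Among the TBI rats, rat 24 had the highest miR-29a-3p level in both regions, and sham rat 26 had the lowest values of all 3 members in sham cortex.

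Profiles over the 24 libraries were compared with those of 216 other miRNAs at 100 CPM or more on average, by the root mean square of the log2 difference after centring. The profile nearest to miR-29a-3p was that of miR-29b-3p, at 0.18, followed by miR-488-3p (0.21), miR-376b-3p (0.22), miR-181c-5p (0.24) and miR-30e-5p (0.25). Nearest to miR-29b-3p were miR-29a-3p and, at 0.20, miR-29c-3p. The profile of miR-29c-3p was nearest to miR-29b-3p, with miR-376b-3p (0.27), miR-30e-5p (0.28), miR-186-5p (0.28) and miR-29a-3p (0.30) next. The median distance to a miRNA was 0.59 for miR-29a-3p and miR-29b-3p and 0.66 for miR-29c-3p. All points share their libraries and their scaling, so these distances are a description.

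The 5p products of the same hairpins were far rarer, and unequally so. Their RefSeq sequences, none of which has the seed of the family, show which product of each hairpin was counted.
miR-29a-5p: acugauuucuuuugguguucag
miR-29b-1-5p: uuucauauggugguuuagauuu
miR-29b-2-5p: cugguuucacaugguggcuuag
miR-29c-5p: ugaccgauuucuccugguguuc
miR-29a-5p had 242 reads in the whole series, so that there were 3245 reads of miR-29a-3p for each. miR-29b-2-5p had 3188 reads and miR-29b-1-5p had 4, each in a different library, and together they gave 10.4 reads of miR-29b-3p per 5p read. miR-29c-5p had 1704 reads, or 5.75 reads of miR-29c-3p for each. With 0 reads in a library, as for miR-29b-1-5p in each of the 6 sham thalamus libraries, counting error alone allows up to 3 reads there. This is 6.72 CPM in the shallowest library. It is a limit for a single library, and that for the 6 together would be lower.

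The 5p products did not pass in any comparison in which they were tested. miR-29b-2-5p ran from 43.5 to 80.1 CPM in sham cortex (median 56.4) and from 53.6 to 94.5 in TBI cortex (median 71.3), or 0.37 on the log2 scale (SE 0.19, edgeR adjusted p = 0.267). Between regions it was at 0.16 in sham rats (SE 0.20, adjusted p = 0.601) and at -0.13 in TBI rats (SE 0.20, adjusted p = 0.662; edgeR). The 3p product, miR-29b-3p, was at -0.37 and -0.52, and the difference between 3p and 5p products was not tested. miR-29a-5p, with few reads, was at 0.08 in sham rats (SE 0.41, adjusted p = 0.894) and at -0.46 in TBI rats (SE 0.40, adjusted p = 0.450; edgeR). miR-29c-5p was at 0.04 and -0.13 (adjusted p = 0.904 and 0.662; edgeR).

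**Figure D5:**
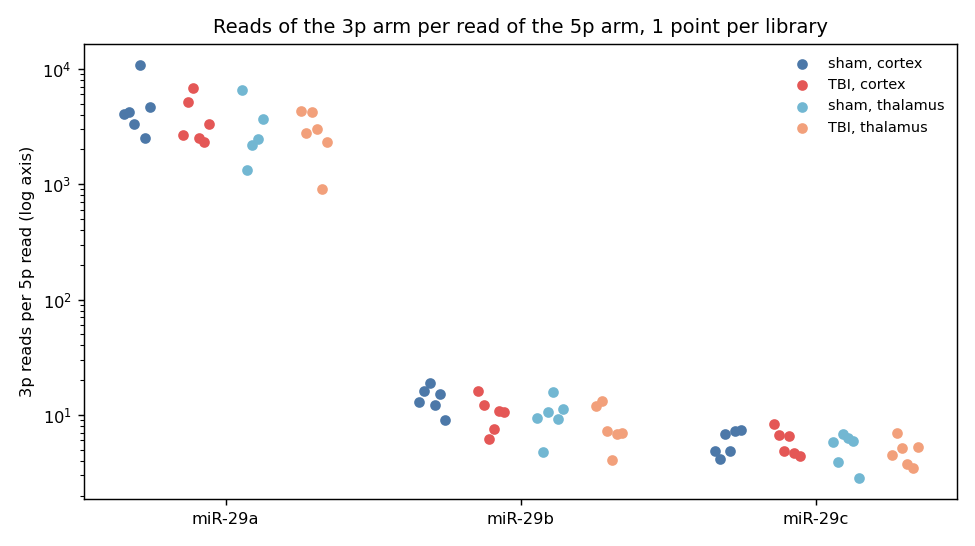
Reads of the 3p product per read of the 5p product (vertical axis, log scale) for the miR-29a, miR-29b and miR-29c hairpins (horizontal axis), 1 point per library, coloured by group; both miR-29b 5p products were summed, and the sham thalamus library of rat 55, with 0 miR-29a-5p reads, has no miR-29a point. miR-29a lies between 907 and 10880 reads per 5p read, miR-29b between 4.05 and 18.8 and miR-29c between 2.82 and 8.42.

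A list of 7 other miRNAs that are linked to fibrosis in the wider literature was read beside the family. It holds miR-21-5p, miR-199a-5p and miR-214-3p, which tend to rise in scarring tissue, miR-133a-3p, miR-30c-5p and miR-200b-3p, which tend to fall, and miR-192-5p. Between TBI and sham rats 0 of the 6 tested in cortex and 0 of the 5 tested in thalamus passed, with median log2 fold changes of 0.13 and -0.10 against 0.05 and -0.03 over all miRNAs. miR-30c-5p, with most reads, averaged 16270 ± 2348 CPM in sham and 18189 ± 3427 in TBI cortex (log2 fold change 0.21, adjusted p = 0.319 in edgeR). miR-21-5p averaged 4939 ± 820 and 4773 ± 771 CPM (-0.01, adjusted p = 0.983), and miR-192-5p 560 ± 154 and 430 ± 58.4 CPM (-0.34, adjusted p = 0.265). miR-199a-5p averaged 102 ± 22.8 CPM in sham and 145 ± 38.3 in TBI cortex (0.56, adjusted p = 0.110).

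Between regions the list went both ways. In sham rats 2 of the 6 tested were called higher in thalamus and 3 lower, beside 12.8% and 12.3% of all miRNAs, and in TBI rats 2 were called higher and 1 lower, beside 14.0% and 13.3%. miR-21-5p was higher in thalamus by 1.15 on the log2 scale in sham rats (adjusted p = 1.51e-05) and by 1.10 in TBI rats (adjusted p = 3.12e-05; edgeR), the opposite sign to miR-29a-3p. miR-192-5p was higher by 0.63 and 0.73 (adjusted p = 0.0378 and 0.0155). miR-30c-5p was at -0.21 and -0.39 and did not pass (adjusted p = 0.527 and 0.211; edgeR). The 3 called lower in sham rats had the sign of miR-29a-3p. They were miR-199a-5p at -1.98, miR-214-3p at -2.82 and miR-133a-3p at -1.03 (adjusted p = 0.00920, 0.00911 and 0.0228; edgeR). In TBI rats these were at -1.29, -1.57 and -1.66, and miR-133a-3p alone passed (adjusted p = 0.000558; edgeR). Rat 45 held the highest miR-199a-5p (246 CPM, group median 21.8) and miR-214-3p (17.3 CPM, group median 1.66) of TBI thalamus. The part of this library in the weaker TBI values was not tested. miR-214-3p was near the floor in sham thalamus, at 0.887 CPM on average.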

How the data were processed

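According to the study's methods, total RNA was turned into small RNA libraries, inserts of small RNA size were excised, and reads were sequenced, trimmed of adapters, mapped to the rat assembly RGSC3.4 and annotated with miRBase 20. How reads were shared between near-identical miRNAs is not given in the sources used here. The authors deposited whole read counts per miRNA and library, 1 table per region, which were used here, and tables of CPM, which were not. The replicates of a group are rats, and groups and rat numbers came from the sample titles.

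The counts were tested with edgeR 4.0.16 (R 4.3.3; limma 3.58.1) by the quasi-likelihood test with TMM scaling, filterByExpr and robust estimation, and Benjamini-Hochberg adjustment at 0.05 over all miRNAs tested. TBI was compared with sham within each region (12 libraries), and regions and the interaction in 1 fit of all 24 libraries. Ratios were tested by exact permutation. The rat number pairs both regions of an animal. Correlations of same-rat deviations from the group means ran from -0.18 to 0.64 over 12 rats. They were 0.30 to 0.64 in TBI rats and -0.18 to 0.49 in sham rats, below 0 in sham rats 26, 32, 50 and 55. In sham rats the pairing thus rests mainly on the rat numbers. The fit of TBI against sham was tested on counts simulated from the cortex libraries. The fit of all 24 libraries was not tested in this way. Alternatives were DESeq2 1.42.0, other scalings and filters, the rat as a block, and leaving out each rat. The named miRNAs were the members, their 5p products, the 5 nearest profiles of each and the fixed lists. Members and lists were chosen with earlier results of these data known. Amplified reads are not independent molecules, so zero-count limits cover counting error only.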

Additional observations from a re-analysis of the deposited data

Results flagged for a closer look

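Of 36 groups of 6 values examined (levels of the members and of their 5p products, and ratios between members), 2 held a value far from the others, where chance alone gives about 1.8, or 1 in 20. miR-29c-3p in sham cortex of rat 34 was at 316.6 CPM, and the next library of that group was at 204 CPM. The same library was also the highest of its group for miR-29a-3p (24940 CPM) and miR-29b-3p (1095 CPM). Without it the change of miR-29c-3p between TBI and sham cortex was 0.21 on the log2 scale (adjusted p = 0.613 in edgeR), against 0.07 with it. miR-29a-5p in TBI thalamus of rat 56 was at 9.84 CPM and the next at 5.37 CPM, which rests on 5 reads in the second shallowest library.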

How the results depend on the processing

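No change between TBI and sham passed for a member under any alternative. Some signs turned with the setting. With library size only, miR-29a-3p was at 0.20 and miR-29b-3p at 0.13 in cortex (TBI over sham), and miR-29b-3p at 0.068 and miR-29c-3p at 0.39 in sham rats (thalamus over cortex). Scaled to 4 reference miRNAs, miR-29a-3p was at 0.0093 in cortex, and with tRNA features in the fit miR-29c-3p was at -0.047. Without the 2 shallowest thalamus libraries, chosen after seeing the data, miR-29c-3p was at 0.090 in sham rats. The regional call of miR-29a-3p was lost with library size only, at -0.14 in sham and -0.51 in TBI rats, and in sham rats with the 4 reference miRNAs, at -0.61; the cause was not tested. The replicate block, with the rat number as the pairing, brought a call of miR-29b-3p in TBI rats, at -0.52, and changed no other call of a member. Without the pairing the ratio of miR-29c-3p to miR-29a-3p in sham rats had an exact p of 0.00433 (adjusted p = 0.0519).

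Leaving out 1 rat at a time, miR-29a-3p between regions ran from -0.67 to -0.50 in sham and from -0.68 to -0.53 in TBI rats. It was called in 8 and 10 of 12 fits, all without the rat as a block. Between TBI and sham, miR-29a-3p ran from -0.12 to 0.066 in cortex and from -0.14 to 0.0031 in thalamus, and miR-29c-3p from -0.073 to 0.21 in cortex. miR-29c-3p between regions in sham rats ran from -0.23 to 0.048. The ratio of miR-29b-3p to miR-29a-3p in cortex, TBI against sham, ran from -0.10 to 7.8e-05, and that of miR-29c-3p to miR-29b-3p between regions in TBI rats from -0.013 to 0.14.

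Counts of called miRNAs moved more. In cortex the 22 became 38 with DESeq2, 39 with library size only, 5 in the fit of all 24 libraries, 1 with the 4 reference miRNAs and 4 to 30 leaving out 1 rat, with fewer than 15 without TBI rat 24, 45 or 52 or sham rat 26, 32, 38 or 50. In thalamus the 2 became 5 in the fit of all 24 libraries, 1 with a mean count of at least 50, 0 with the 4 reference miRNAs, and 0 to 2 leaving out 1 rat (0 without sham rat 26, 32 or 34 and 1 without sham rat 38). Between regions in sham rats the 102 became 167 with library size only, 145 of them higher, against 52 higher of 102. The robust option of the main fits was switched on after a first run without it had been seen. Estimation without it changed no call of a member.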
